A study of Mus musculus with 11 samples.

Results

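The 10 genes described here are known from plasmacytoid dendritic cells and from myeloid cells and stood high in the naive T cell sort of the lacrimal gland. They are Tyrobp, Klra17, Lair1, Clec10a, Csf2rb, Irf8, Mpeg1, Pld4, Kmo and Upb1, 10 of the 17097 genes on the arrays, and 15 probe sets of 28898 with a single gene carry their symbols. They were chosen by their measured levels, as genes higher in LG_naive than in the effector subsets of the gland, and no threshold defined the choice. Differences between LG_naive and those subsets are therefore given for these genes as a description, with no test.

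RNA was measured on 11 arrays from 16-week-old male mice of the NOD strain, which develops autoimmune inflammation of the lacrimal gland. From the gland, LG_eTreg (effector regulatory cells) and LG_eTconv (effector conventional cells) were sorted as live CD4+ TCRβ+ cells, high for PD-1 and ICOS and low for CD73 and CD200, and LG_naive as live CD4+ TCRβ+ cells negative for PD-1 and ICOS, with 3 arrays in each group. The stated gate is the same for LG_eTreg and LG_eTconv. Spleens of these mice gave total CD4+ T cells (Spl_CD4) and total CD8+ T cells (Spl_CD8), on 1 array each. Nothing in the labels ties replicates to separate mice or to pools, so the p-values rest on a spread between arrays that may be technical, and the number of arrays limits the precision.

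Plasmacytoid dendritic cells are bone marrow derived cells that sense nucleic acids through endosomal Toll-like receptors and answer with type I interferon. They are known in salivary and lacrimal tissue for their link to Sjögren's syndrome. The transcription factor encoded by Tcf4 holds their identity, Irf8 is shared between dendritic, monocytic and B cell lineages, and mouse plasmacytoid cells can display CD4, while the T cell receptor β chain is a T cell protein. Macrophages and conventional dendritic cells share with them the signalling adaptor Tyrobp and many lectin receptors.

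All values are log2 signals, on which a difference of 1 is a 2-fold change. Array medians were 2.26 to 2.39, and 55.5% to 65.6% of genes lay above an array's background limit, the highest of its nonspecific control probe sets (0.945 to 1.70). Controls of RNA quality set arrays apart: LG_eTreg 3 (6.69) and LG_naive 1 (6.63) read highest for 18S ribosomal RNA, with 4.34 to 5.68 elsewhere, and LG_eTconv 1 had the widest difference of 3′ from 5′ actin probe sets, 3.35, with 1.53 to 2.86 elsewhere. Per the labels, 1 sample had a lower RNA integrity number than all others, and its group is not given. In the check of the label, the T cell genes Cd3e and Cd4 were high on the LG_naive arrays (Cd3e 9.19, 9.59 and 9.55, Cd4 8.44, 8.40 and 8.45), as on Spl_CD4 (9.45 and 8.49). Siglech and Bst2, surface markers that define plasmacytoid dendritic cells, were not analysed here, so the cell type in the name of these genes was not checked with them. Other markers are given below, from lists chosen with earlier results of these data known.

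The protein-coding genes lie on 9 chromosomes of the GRCm38.p6 build: Kmo at chr1:175632193-175660853, Klra17 at chr6:129831154-129876672, Lair1 at chr7:4007073-4073567, Tyrobp at chr7:30413782-30417582, Irf8 at chr8:120736358-120756694, Upb1 at chr10:75406911-75441679, Clec10a at chr11:70166623-70170836, Pld4 at chr12:112760446-112768986, Csf2rb at chr15:78325800-78351001 and Mpeg1 at chr19:12460770-12465285. Their promoters were read as those of genes chosen for the same pattern. RefSeq promoter windows (GRCm38.p6, 250 bases before to 50 after a start site) were on hand for 7 of the 10: Klra17, Lair1, Pld4, Mpeg1, Kmo, Upb1 and Irf8, with 2 windows for Irf8. The 3 of them with the largest differences between LG_eTconv and LG_naive are shown, 5′ to 3′ on the gene's strand, with GAGGAA or its reverse complement TTCCTC in capitals, the core that PU.1 and related ETS factors bind. They are Klra17 (chr6:129876623-129876922, minus strand), Lair1 (chr7:4063155-4063454, minus strand) and Pld4 (chr12:112760405-112760704, plus strand).
Klra17: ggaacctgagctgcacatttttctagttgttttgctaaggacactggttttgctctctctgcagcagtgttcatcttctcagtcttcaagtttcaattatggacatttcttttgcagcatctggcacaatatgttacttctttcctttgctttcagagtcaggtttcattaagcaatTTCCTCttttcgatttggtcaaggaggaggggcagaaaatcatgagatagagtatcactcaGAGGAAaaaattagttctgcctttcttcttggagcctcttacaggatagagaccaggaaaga
Lair1: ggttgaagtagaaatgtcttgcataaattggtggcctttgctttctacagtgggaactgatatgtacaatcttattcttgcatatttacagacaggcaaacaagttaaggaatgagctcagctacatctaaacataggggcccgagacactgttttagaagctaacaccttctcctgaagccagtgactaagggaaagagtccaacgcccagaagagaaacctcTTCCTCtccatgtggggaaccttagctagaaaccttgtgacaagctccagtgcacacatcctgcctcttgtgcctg
Pld4: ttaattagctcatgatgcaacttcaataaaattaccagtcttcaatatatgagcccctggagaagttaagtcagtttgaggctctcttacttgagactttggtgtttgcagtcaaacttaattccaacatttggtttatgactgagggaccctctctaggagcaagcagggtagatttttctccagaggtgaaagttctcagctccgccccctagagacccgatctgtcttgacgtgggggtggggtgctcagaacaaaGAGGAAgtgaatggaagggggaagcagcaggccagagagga
Klra17 held GAGGAA at -73 (as TTCCTC) and at -12 from the start site, Lair1 at -26 (as TTCCTC) and Pld4 at 10. The start sites used for Lair1 and Pld4 lie inside the gene spans given above, not at their outer 5′ ends. On either strand, GAGGAA stood in 5 of the 8 windows, the other ones being those of Kmo (-103) and Upb1 (-151), against 28.3% of the 32851 mouse windows. An interferon response type of motif (GAAA, 2 bases of any kind, GAAA), searched on both strands, was in 0 of 8 windows and in 3.44% of all windows. The composite that PU.1 can share with an IRF protein (GGAA, 2 bases of any kind, GAAA), which can overlap the other patterns, was in 0 of 8 and in 2.72% of all windows. A match is only a run of letters in this window, and Spi1, the gene of PU.1, read 2.13, 1.70 and 2.09 in LG_eTreg, 2.24, 2.07 and 1.54 in LG_eTconv, 2.56, 2.56 and 2.35 in LG_naive, 2.95 in Spl_CD4 and 2.42 in Spl_CD8.

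The adaptor and the receptors come first. Tyrobp encodes DAP12, the membrane adaptor whose ITAM motif passes on the signal of many activating receptors of myeloid and natural killer cells. It read 4.35, 4.22 and 4.36 in LG_eTreg, 4.60, 4.72 and 4.15 in LG_eTconv, 7.81, 8.06 and 8.33 in LG_naive, 6.45 in Spl_CD4 and 6.11 in Spl_CD8. The 3 LG_naive arrays lay above all others, with the spleen arrays in between, and LG_eTconv was below LG_naive by 3.58 on the log2 scale and LG_eTreg by 3.75. Klra17 encodes Ly49Q, an inhibitory lectin-like receptor known from mouse plasmacytoid dendritic cells. Its values were 3.57, 4.64 and 4.47 in LG_eTreg, 3.05, 3.68 and 2.70 in LG_eTconv, 8.16, 8.08 and 7.99 in LG_naive, 5.41 in Spl_CD4 and 3.99 in Spl_CD8. No array outside LG_naive came within 2-fold of it, and its SD over the LG_naive arrays, 0.08, was the smallest of the 10 genes. Klra1 read 0.40, 0.05 and 0.13 in LG_naive and Klra7 0.69, 0.82 and 0.82, below the background limits, both chosen after their values were seen.

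Lair1 encodes an inhibitory receptor for collagen, carried by most leukocyte types. It read 2.52, 2.27 and 1.18 in LG_eTreg, 2.29, 1.77 and 1.99 in LG_eTconv, 6.94, 7.29 and 7.10 in LG_naive, 5.54 in Spl_CD4 and 4.87 in Spl_CD8. This was the widest gap of the 10 genes, 34.1-fold between LG_naive and LG_eTconv and 34.8-fold between LG_naive and LG_eTreg. Its other probe sets were dimmer and ran the same way, at 3.24, 4.43 and 4.35 and at 2.66, 2.47 and 2.84 in LG_naive. Clec10a, a lectin for galactose-type sugars on macrophages and dendritic cells, read 0.75, 0.80 and 0.85 in LG_eTreg, all below background, 1.20, 2.92 and 1.505 in LG_eTconv, 4.83, 4.21 and 4.41 in LG_naive, 1.74 in Spl_CD4 and 1.46 in Spl_CD8. LG_naive was at least 9.58-fold higher than LG_eTreg, computed against the background limit.

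Csf2rb encodes the β chain shared by the receptors for GM-CSF, interleukin 3 and interleukin 5. Its brightest probe set read 2.56, 3.48 and 2.65 in LG_eTreg, 2.96, 2.07 and 3.96 in LG_eTconv, 6.23, 6.82 and 6.90 in LG_naive, 3.10 in Spl_CD4 and 4.73 in Spl_CD8. The 3 probe sets of Csf2rb disagreed in size: a dimmer one read 2.02, 3.48 and 2.74 in LG_naive, and the third differed by -0.08 between LG_eTconv and LG_naive and by -0.28 between LG_eTreg and LG_naive. Csf2rb2, the near-identical mouse paralog that serves interleukin 3 alone, read 2.69, 3.46 and 3.31 in LG_eTreg, 3.30, 1.98 and 2.97 in LG_eTconv, 6.30, 6.88 and 7.08 in LG_naive, 2.40 in Spl_CD4 and 3.51 in Spl_CD8. The signals of this pair may share transcripts, and which of the 2 genes gave them cannot be told apart here.

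Irf8 encodes a transcription factor needed for plasmacytoid and for the cross-presenting conventional dendritic cells. It read 5.08, 5.23 and 5.36 in LG_eTreg, 3.44, 3.61 and 3.49 in LG_eTconv, 6.45, 6.11 and 6.21 in LG_naive, 4.37 in Spl_CD4 and 3.89 in Spl_CD8. It was the one gene of the 10 with LG_eTreg as the next highest group after LG_naive. Its second probe set gave 4.15, 3.89 and 4.82 in LG_eTreg, 3.86, 3.20 and 2.64 in LG_eTconv, 5.20, 4.88 and 5.42 in LG_naive, 3.10 in Spl_CD4 and 3.56 in Spl_CD8, with the same order of the gland groups.

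The effector proteins and enzymes followed. Mpeg1 encodes perforin-2, a pore-forming protein of phagocytes and B cells, and was the brightest of the 10. It read 5.93, 5.38 and 4.84 in LG_eTreg, 6.68, 5.93 and 5.95 in LG_eTconv, 8.55, 8.76 and 8.84 in LG_naive, 7.17 in Spl_CD4 and 6.79 in Spl_CD8, so that its lowest LG_naive array stood above every other array. Pld4, an endolysosomal exonuclease of plasmacytoid, myeloid and B cells that breaks down nucleic acid ligands of Toll-like receptors, read 0.90, 1.65 and 2.29 in LG_eTreg, 1.42, 1.97 and 2.003 in LG_eTconv, 5.52, 5.37 and 5.60 in LG_naive, 4.27 in Spl_CD4 and 5.18 in Spl_CD8. Here Spl_CD8 came within 0.32 of the LG_naive mean.

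Kmo, the kynurenine 3-monooxygenase of tryptophan breakdown, gave 1.95, 2.35 and 2.53 in LG_eTreg, 2.31, 3.05 and 2.35 in LG_eTconv, 4.98, 5.31 and 5.77 in LG_naive, 4.07 in Spl_CD4 and 5.05 in Spl_CD8. Spl_CD8 lay inside the LG_naive range, the only such overlap among the 10 genes. Upb1, the β-ureidopropionase that closes pyrimidine breakdown, gave 1.09, 1.67 and 0.63 in LG_eTreg, 2.03, 1.66 and 0.79 in LG_eTconv, 4.67, 3.92 and 3.71 in LG_naive, 1.41 in Spl_CD4 and 0.71 in Spl_CD8. Both spleen arrays were below background for Upb1, and its SD over the LG_naive arrays, 0.51, was the largest of the 10.

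**Figure D1:**
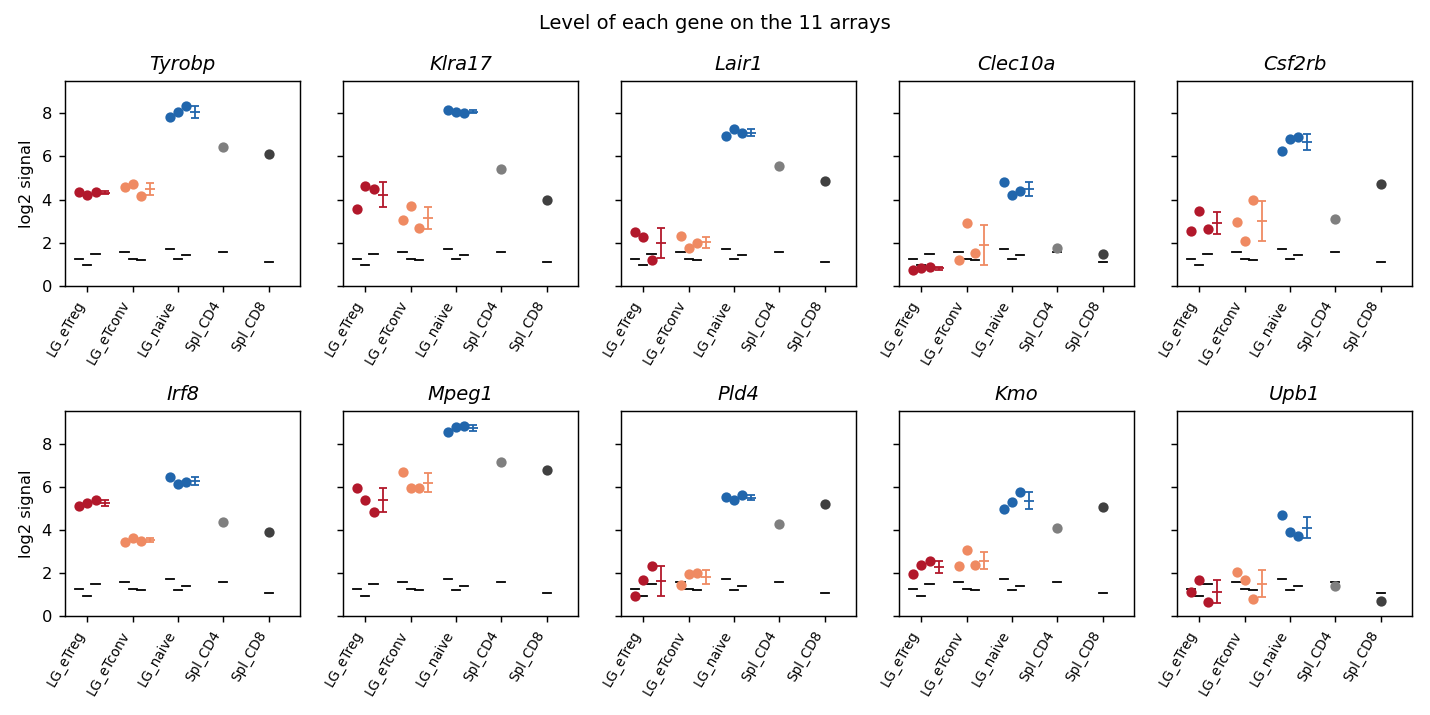
Log2 signal of each of the 10 genes (one panel each, brightest probe set) on every array of LG_eTreg, LG_eTconv, LG_naive, Spl_CD4 and Spl_CD8. Points are arrays, error bars beside the gland groups are the mean and SD over 3 arrays, and short black lines are each array's background limit. The LG_naive points stand above the other arrays in every panel except that of Kmo, where Spl_CD8 (5.05) lies inside the LG_naive range of 4.98 to 5.77.

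Across the 10 genes the median difference was -3.18 in LG_eTconv minus LG_naive (-5.09 to -2.52) and -3.72 in LG_eTreg minus LG_naive (-5.12 to -1.03). All 10 were lower in both comparisons, which restates how they were chosen. Over all genes the medians were -0.03 and -0.02, and 7.02% of genes were called lower in LG_eTconv and 5.47% in LG_eTreg (limma, Benjamini-Hochberg adjusted p under 0.05). The mean over the 10 genes was 2.87, 3.17 and 2.92 in LG_eTreg, 2.999, 3.14 and 2.89 in LG_eTconv, 6.42, 6.39 and 6.49 in LG_naive, 4.35 in Spl_CD4 and 4.28 in Spl_CD8. In LG_naive all 10 genes were above background on all 3 arrays, whereas 7 to 10 genes were above background on an effector array. No one LG_naive array carried the pattern: LG_naive 1 was the highest of the 3 for 4 genes, LG_naive 2 for 1 and LG_naive 3 for 5. In bulk RNA of this kind, fewer cells of a type and less RNA per cell cannot be told apart.

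The comparison of LG_eTreg with LG_eTconv asks how the effector subsets differ, and the choice of genes did not use it. Irf8 was higher in LG_eTreg, at 5.23 ± 0.14 against 3.52 ± 0.09 in LG_eTconv (SD, n = 3 each; log2 difference 1.71, SE 0.13, limma adjusted p = 0.0001). The 2 groups did not overlap, and the second probe set differed by 1.05, with an adjusted p of 0.172 over all probe sets. The other 9 genes were not called, so that 1 of 10 was called higher and 0 lower, where 2.94% of all genes were called higher and 2.76% lower. Among the 9, Klra17, Mpeg1 and Clec10a had the lowest adjusted p, 0.106 to 0.211. Klra17 averaged 4.22 ± 0.58 in LG_eTreg and 3.14 ± 0.50 in LG_eTconv (difference 1.08, SE 0.32, adjusted p = 0.106), and without LG_eTreg 1 it was called (1.41, adjusted p = 0.0249).

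Mpeg1 differed by -0.81 (SE 0.30, adjusted p = 0.207), at 5.38 ± 0.55 in LG_eTreg and 6.19 ± 0.43 in LG_eTconv, with overlapping arrays. Clec10a was below background in LG_eTreg and above its limit on 2 of 3 LG_eTconv arrays (adjusted p = 0.211), without overlap, and LG_eTconv was at least 1.58-fold higher. The differences of Tyrobp (-0.17), Lair1 (-0.03), Pld4 (-0.18), Kmo (-0.30), Upb1 (-0.36) and Csf2rb (-0.10) had standard errors of 0.18 to 0.46 and adjusted p of 0.712 to 0.984. Over the 10 genes the median was -0.18, against 0.01 over all genes.

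**Figure D2:**
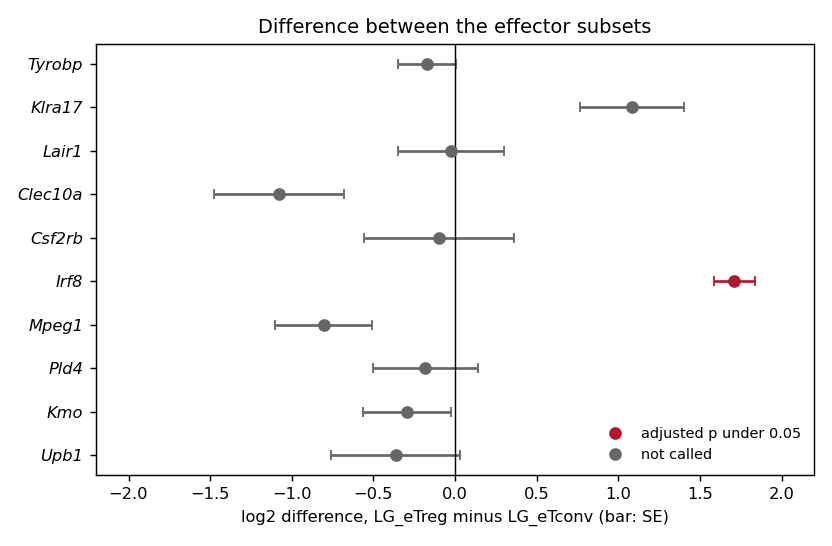
Log2 difference of LG_eTreg minus LG_eTconv for the 10 genes (points, with the limma standard error as bars). Irf8 stands at 1.71 and is the one gene called at adjusted p under 0.05, while Clec10a (-1.08) and Klra17 (1.08) mark the ends of the other 9.

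The spleen arrays set LG_naive beside T cells of another organ, without replicates and hence without a test. All 10 genes were at least 2-fold higher in LG_naive than in Spl_CD4 with all 3 LG_naive arrays above it, by a median of 1.75 (1.23 for Pld4 to 3.56 for Csf2rb), and 4.67% of all genes met this rule. Against Spl_CD8, 8 of 10 met it, with a median of 2.10 and Klra17 at the top (4.09), where 6.11% of all genes did. Pld4 (0.32) and Kmo (0.30) were the ones that did not. Tyrobp, Klra17, Lair1, Mpeg1, Upb1, Clec10a, Irf8 and Csf2rb met it against both arrays, as did 3.26% of all genes. For Upb1, LG_naive was at least 5.81-fold higher than Spl_CD4 and at least 8.10-fold higher than Spl_CD8. These comparisons share the LG_naive arrays with those against the effector subsets.

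The spleen arrays also carried B cell transcripts. The 12 measured B and plasma cell genes averaged 2.16 to 2.67 in LG_eTreg, 2.98 to 3.40 in LG_eTconv, 3.40 to 3.80 in LG_naive, 5.22 in Spl_CD4 and 5.84 in Spl_CD8. Ms4a1, the CD20 gene, chosen after its values were seen, read 3.46, 3.56 and 3.27 in LG_naive, 6.97 in Spl_CD4 and 7.58 in Spl_CD8. Irf8, Mpeg1 and Pld4 are expressed in B cells too, and the part of such cells in the spleen values was not tested. None of the 12 genes met the 2-fold rule against both spleen arrays.

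**Figure D3:**
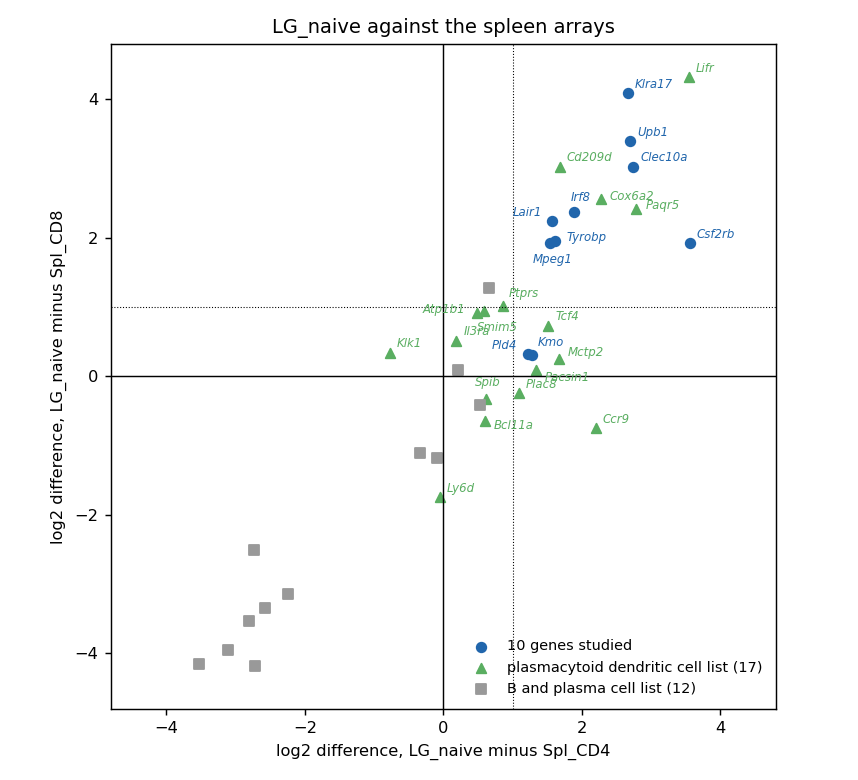
Log2 difference of LG_naive minus Spl_CD8 against that of LG_naive minus Spl_CD4 for the 10 genes (circles), the plasmacytoid dendritic cell list (triangles) and the B and plasma cell list (squares). Dotted lines mark a difference of 1 (2-fold). Pld4 and Kmo are the circles below the horizontal dotted line, and Lifr, Cox6a2, Cd209d and Paqr5 are the triangles in the upper right field with the other 8 circles.

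To see which other transcripts moved with the 10, marker lists of the cell types that a gland suspension can hold were read, leaving out the 10 genes themselves. The lists were chosen with earlier results of these data known. Their counts against LG_naive use the comparisons that chose the 10 genes, so they describe the values and are no independent check. Of 17 measured genes of the plasmacytoid dendritic cell list 13 were lower and 3 higher in LG_eTconv than in LG_naive. The median was -2.47, or -2.07 with the highest limit of any array as the floor for all. Of all genes 7.02% were called lower and 6.45% higher in LG_eTconv. In LG_eTreg 13 of the 17 were lower and 2 higher than in LG_naive (median -2.43), where 5.47% of all genes were called lower and 6.2% higher. The same shares of all genes stand beside every later list count against LG_naive. All 17 were above background on all 3 LG_naive arrays. The list averaged 2.94 to 2.96 in LG_eTreg, 3.14 to 3.40 in LG_eTconv, 5.26 to 5.40 in LG_naive, 4.14 in Spl_CD4 and 4.56 in Spl_CD8.

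Tcf4, the factor that holds plasmacytoid identity, read 3.50, 3.88 and 3.32 in LG_eTreg, 4.43, 4.61 and 4.38 in LG_eTconv, 5.69, 6.24 and 6.05 in LG_naive, 4.47 in Spl_CD4 and 5.26 in Spl_CD8. It was lower than in LG_naive by 1.52 in LG_eTconv (adjusted p = 0.000786) and by 2.43 in LG_eTreg (adjusted p = 7.25e-05). Lifr, the leukaemia inhibitory factor receptor, read 0.83, 1.52 and 1.16 in LG_eTreg, 1.04, 2.24 and 1.35 in LG_eTconv, 5.92, 5.70 and 5.92 in LG_naive, 2.30 in Spl_CD4 and 1.53 in Spl_CD8. It separated LG_naive from all other arrays (LG_eTconv minus LG_naive -4.30, SE 0.30, adjusted p = 3.64e-05). Ccr9, a gut-homing receptor of plasmacytoid dendritic cells and of T cells, differed by -4.15 in LG_eTconv and -5.30 in LG_eTreg, but read 7.29 in Spl_CD8 against 6.30, 6.49 and 6.83 in LG_naive. Atp1b1, a sodium pump subunit (-4.49 in LG_eTconv, adjusted p = 2.06e-06), and Plac8 (-3.91, adjusted p = 8.48e-05) were likewise high in the spleen, at 8.27 and 6.58 in Spl_CD4.

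Of the 17, Lifr, Cox6a2, Cd209d and Paqr5 were at least 2-fold higher in LG_naive than in both spleen arrays, and all 4 were lower in both effector subsets. The spleen rule was not met by this list alone. It was also met by 4 of 24 monocyte and macrophage genes and 3 of 17 conventional dendritic cell genes. Of 14 myeloid and dendritic transcription factors 4 met it (Cebpb, Klf4, Irf4 and Nfil3). Klf4 and Nfil3 were higher in LG_eTconv than in LG_naive (by 1.09 and 2.72). Of 12 genes of endosomal Toll-like receptors and interferon production 2 met it (Traf6 and Irf7), and Ltf and Csf2rb2 of other lists did too. Of 13 T cell genes 0 met it, and of all genes 3.26%. Cox6a2, Cd209d and Paqr5 were chosen after their values were seen. Cox6a2, a subunit of cytochrome c oxidase, read 2.89, 2.06 and 2.52 in LG_eTreg, 2.83, 2.39 and 2.80 in LG_eTconv, 4.71, 4.51 and 5.02 in LG_naive, 2.47 in Spl_CD4 and 2.18 in Spl_CD8. Cd209d, a C-type lectin, averaged 2.51 in LG_eTreg, 1.71 in LG_eTconv and 4.96 in LG_naive. The members that went the other way were Il3ra, Ptprs and Pacsin1. Il3ra, the α chain that binds interleukin 3 beside the product of Csf2rb, exceeded LG_naive by 1.36 in LG_eTconv (adjusted p = 0.000999) and 1.82 in LG_eTreg (adjusted p = 0.000232), and read 2.92, 2.81 and 2.85 in LG_naive. Ptprs and Pacsin1, also chosen after their values were seen, averaged 7.42 and 6.13 in LG_naive, and were higher in LG_eTconv by 1.15 and 1.33.

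Genes of nucleic acid sensing and interferon production, many of them active in most cell types, were read next. Of 12 genes of endosomal Toll-like receptors and interferon production 3 were lower in LG_eTconv, and in LG_eTreg 2 were lower and 2 higher. Slc15a4, a lysosomal transporter needed for these receptors, was lower by 1.29 in LG_eTconv (adjusted p = 0.00816) and by 2.15 in LG_eTreg (adjusted p = 0.000618). Irf7, the factor that switches on type I interferon, differed by -1.26 in LG_eTconv (adjusted p = 0.00935) and by -0.22 in LG_eTreg (adjusted p = 0.697). Tlr7 read 5.94, 3.76 and 4.79 in LG_eTreg, 4.73, 5.26 and 5.81 in LG_eTconv, 6.21, 5.38 and 6.25 in LG_naive, 1.94 in Spl_CD4 and 5.21 in Spl_CD8, and was not called in LG_eTconv (adjusted p = 0.51). Tlr9 stayed between 1.18 and 1.92 in LG_naive.

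Markers of conventional dendritic cells and of macrophages were read the same way. Of 17 conventional dendritic cell genes 4 were lower and 1 higher in LG_eTconv (median 0.01), and 5 were lower and 2 higher in LG_eTreg (median -0.17). Sirpa, a receptor of myeloid and dendritic cells that binds CD47, was lower by 2.40 in LG_eTconv (adjusted p = 0.000376) and by 2.19 in LG_eTreg (adjusted p = 0.000761). It read 3.97 in Spl_CD4 and 5.73 in Spl_CD8, against 4.36, 4.74 and 4.90 in LG_naive. Itgax, the integrin CD11c of dendritic cells and some macrophages, was lower by 3.13 in LG_eTconv (adjusted p = 0.00386) and by 2.30 in LG_eTreg (adjusted p = 0.0213), but without LG_eTreg 1, LG_eTreg 2 or any one LG_naive array the LG_eTreg call ended (adjusted p = 0.0535 to 0.0701), and it read 4.44 in Spl_CD4. Cd83, an activation marker of dendritic cells and lymphocytes, went the other way, 2.18 higher in LG_eTconv (adjusted p = 0.000593) and 1.20 higher in LG_eTreg (adjusted p = 0.0167), where the call ended without LG_eTreg 2, LG_eTreg 3 or LG_naive 1 (adjusted p = 0.052 to 0.0585). Flt3, the receptor that drives dendritic cell growth, read 1.88, 2.56 and 3.66 in LG_naive and was below background on all 8 other arrays, so that LG_naive was at least 2.57-fold higher than LG_eTconv and at least 2.78-fold higher than LG_eTreg. These bounds use each array's own limit. With all values under the highest limit of any array raised to that limit, the difference was -1.0004 in both comparisons (adjusted p = 0.241 in LG_eTconv and 0.263 in LG_eTreg). Xcr1, which marks the cross-presenting subset, lay below background on all arrays.

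Of 24 monocyte and macrophage genes 7 were lower in LG_eTconv and 4 in LG_eTreg, and 0 were higher. The count of 7 fell to 4 without LG_eTconv 1, to 4 without LG_eTconv 2 and to 3 without LG_naive 2. Cd14, the lipopolysaccharide co-receptor, read 3.17, 3.88 and 3.10 in LG_eTreg, 2.04, 1.34 and 1.79 in LG_eTconv, 4.56, 4.90 and 4.94 in LG_naive, 1.52 in Spl_CD4 and 1.76 in Spl_CD8, and Cd68, a lysosomal protein of phagocytes, differed by -2.45 in LG_eTconv (adjusted p = 0.000773) and -2.05 in LG_eTreg (adjusted p = 0.00244). Lyz2, the lysozyme of macrophages and neutrophils, differed by -1.22 in LG_eTconv and -1.41 in LG_eTreg, and read 7.92 in Spl_CD4 against 6.83, 7.85 and 7.39 in LG_naive. Csf1r, the growth factor receptor that defines macrophages, read 0.48, 0.77 and 0.87 in LG_naive, and Itgam and Mertk, both chosen after their values were seen, 0.26 or less there, all below background. In LG_naive 11 of the 24 genes were above background on all 3 arrays and 6 on none. The list averaged 1.81 to 1.86 in LG_eTreg, 1.57 to 1.75 in LG_eTconv, 2.32 to 2.75 in LG_naive, 2.32 in Spl_CD4 and 2.10 in Spl_CD8.

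Of 14 neutrophil, mast cell and basophil genes 13 were below background on all LG_naive arrays, and the one that was not, Ltf, encodes lactoferrin, which gland epithelium also secretes. S100a8 and S100a9, chosen after their values were seen, were below background on all gland arrays. They read 5.22 and 6.70 in Spl_CD4 and 6.04 and 7.57 in Spl_CD8. Of the 14 genes 12 were at or below background in Spl_CD4 and 11 in Spl_CD8. The part of such cells in the spleen values of the 10 genes was not tested. Ltf read 5.12, 6.79 and 6.28 in LG_eTreg, 2.87, 5.39 and 3.62 in LG_eTconv, 7.21, 8.33 and 7.61 in LG_naive, 1.29 in Spl_CD4 and 0.90 in Spl_CD8. It was lower by 3.76 in LG_eTconv (adjusted p = 0.00621) and differed by -1.66 in LG_eTreg (adjusted p = 0.179). Without LG_naive 1, LG_eTconv 1 and LG_eTreg 3 together, the LG_eTconv call ended (adjusted p = 0.051). This gland transcript was high in LG_naive, as the 10 genes were, but also in LG_eTreg, and its part in their values was not tested. Of 13 natural killer and innate lymphoid cell genes 1 was lower and 3 higher in LG_eTconv, and 0 lower and 2 higher in LG_eTreg, and the defining gene Ncr1 was below background in LG_naive. Of 12 B and plasma cell genes 2 were lower in LG_eTconv and 6 in LG_eTreg. Blnk, the adaptor of the B cell receptor that plasmacytoid dendritic cells also use, read 0.64, 0.56 and 0.76 in LG_eTreg, 2.15, 2.81 and 1.60 in LG_eTconv, 4.16, 4.74 and 4.60 in LG_naive, 4.83 in Spl_CD4 and 5.61 in Spl_CD8. Of 13 T cell genes 1 was lower and 4 higher in each effector subset, and their mean was 7.87 to 8.13 in LG_eTreg, 7.95 to 8.26 in LG_eTconv and 7.88 to 8.01 in LG_naive. Which cells carried the 10 transcripts into a sort of CD4+ TCRβ+ cells was not tested.

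**Figure D4:**
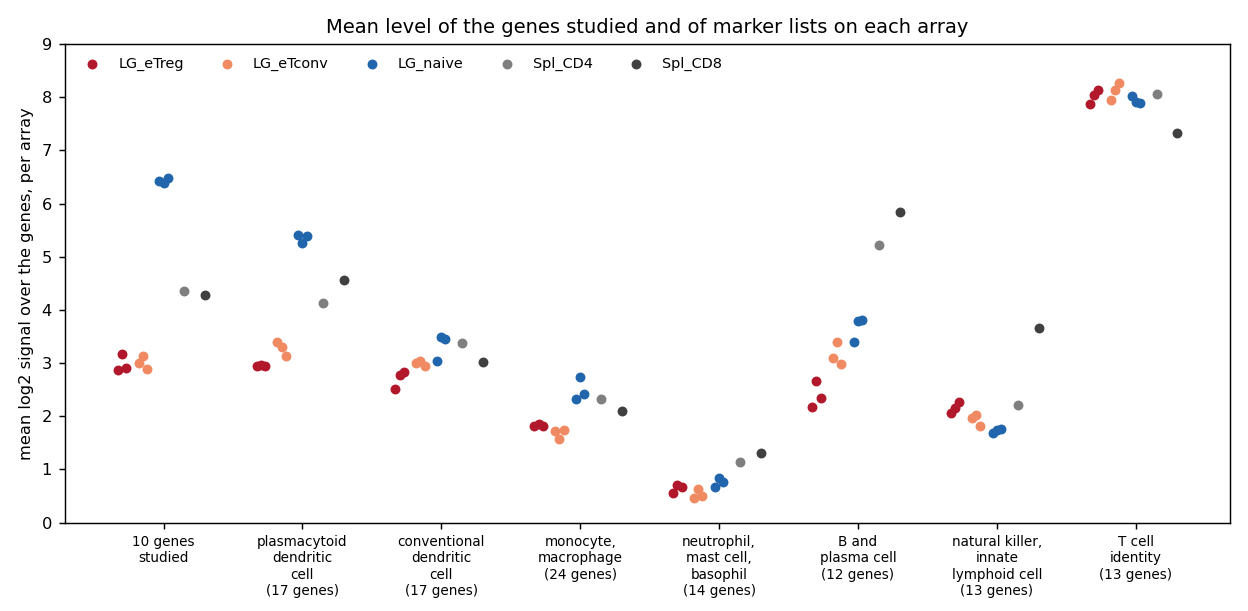
Mean log2 signal per array over the 10 genes and over 7 marker lists, with arrays as points coloured by group. LG_naive stands above the other groups for the 10 genes (6.39 to 6.49) and the plasmacytoid dendritic cell list (5.26 to 5.40), the spleen arrays stand highest for the B and plasma cell list, and the T cell list lies between 7.33 and 8.26 on all arrays.

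Partners of the 10 gene products and related genes were measured too. Of 13 genes of a list on ITAM signalling (adaptors, receptors and signalling proteins) 3 were lower in LG_eTconv and 5 in LG_eTreg and 0 were higher. Fcer1g, the Fc receptor γ chain, differed by -2.37 in LG_eTconv (adjusted p = 0.00512), and Fgr, a Src family kinase of myeloid cells, by -1.66 (adjusted p = 0.000641). Fcer1g read 4.28 in Spl_CD4 and 4.47 in Spl_CD8, against 4.31, 5.01 and 4.78 in LG_naive. Klrd1, also on this list, differed by -2.47 (adjusted p = 0.00922) and read 8.69 in Spl_CD8 against 6.78, 6.94 and 6.71 in LG_naive. Syk, the kinase that docks on the ITAM adaptors, was below background on all arrays. Of 8 kynurenine pathway genes other than Kmo 3 were lower in LG_eTconv and 2 in LG_eTreg. Haao, the enzyme after Kynu in this pathway, read 1.87, 1.71 and 1.44 in LG_eTreg, 2.54, 2.71 and 1.93 in LG_eTconv, 3.55, 4.39 and 4.71 in LG_naive, 4.36 in Spl_CD4 and 4.79 in Spl_CD8, and so resembled Kmo in its spleen values. Kynu read 2.77, 1.82 and 2.51 in LG_naive, 3.53 in Spl_CD8 and 0.43, below background, in Spl_CD4. It was at least 2.04-fold higher in LG_naive than in LG_eTconv and at least 2.21-fold higher than in LG_eTreg by each array's own limit. With the highest limit of any array as the floor for all, the difference was -0.67 in both comparisons and not called (adjusted p = 0.15 in LG_eTconv and 0.163 in LG_eTreg).

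Of 6 pyrimidine breakdown genes beside Upb1 0 were lower in LG_eTconv and 1 in LG_eTreg, and Dpyd and Dpys, which act before Upb1, were below background on all arrays. Of 10 other genes of the common β chain receptors 4 were higher and 1 lower in LG_eTconv, and 2 were higher and 1 lower in LG_eTreg, the lower one being Csf2rb2 in both (-4.01 and -3.60). Of 12 ITIM receptors and phosphatases 2 were higher and 1 lower in LG_eTconv, and 3 higher and 2 lower in LG_eTreg. Of 14 myeloid and dendritic transcription factors 4 were higher and 3 lower in LG_eTconv, and 3 higher and 3 lower in LG_eTreg. Spib, a factor of plasmacytoid dendritic cells and B cells, was lower by 2.99 in LG_eTconv (adjusted p = 9.25e-05) and by 4.41 in LG_eTreg (adjusted p = 1.41e-05), and read 6.52 in Spl_CD8. Nfil3, a factor of several lymphoid lineages, was higher in both effector subsets (2.72 in LG_eTconv, 3.11 in LG_eTreg). Of 5 genes of the phospholipase D and perforin families beside Pld4 and Mpeg1 1 was higher in LG_eTconv and 0 changed in LG_eTreg.

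The genes were chosen for a shared pattern over the groups, and correlations over the arrays restate that choice. Each gene's Pearson correlation over the 11 arrays with the mean of the other 9 ran from 0.69 (Irf8) and 0.85 (Upb1) to 0.98 (Tyrobp). The genes outside the 10 that were most like their mean, by the same measure among 9247 above background on all LG_naive arrays, were Pde4b (r = 0.99), Rgs18, Tgfbr2, Mideas, Adgrl2, Smim5, Havcr1, Lifr, Gabrb1 and Dusp10 (r = 0.96 to 0.97). Smim5 and Lifr were on the plasmacytoid list. Rgs18, a regulator of G protein signalling known from myeloid cells and platelets, read 0.05, -0.26 and -0.12 in LG_eTreg, -0.20, 0.05 and -0.19 in LG_eTconv, 2.53, 2.09 and 2.87 in LG_naive, 1.31 in Spl_CD4 and 0.26 in Spl_CD8. Dusp10, a MAP kinase phosphatase, was bright on all arrays, at 7.27, 7.42 and 7.37 in LG_eTreg, 7.59, 7.62 and 7.54 in LG_eTconv, 9.57, 9.55 and 9.45 in LG_naive, 7.51 in Spl_CD4 and 7.85 in Spl_CD8.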

How the data were processed

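The 11 arrays came as 1 table of log2 signals deposited by the authors. Per the submitters' processing notes it was made in Partek by RMA, with versions not given in the sources used here, and that the logarithm has base 2 is inferred from RMA. RMA scales all arrays to a common distribution, so a broad shift of RNA content is not visible. Per the labels, RNA was amplified with NuGEN Ovation before biotin labelling.

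Of 45141 probe sets, 104 controls were left out, and 28898 had 1 gene symbol, 551 several and 15588 none listed in the annotation used. Each of 17097 genes was represented by its brightest probe set on average over the 9 gland arrays. No filter on dim genes was used. Background limits came from 23 nonspecific control probe sets, and bounds written as at least N-fold use each array's own. Differences were tested over the 9 gland arrays with limma 3.58.1 (R 4.3.3), using group means, empirical Bayes and two-sided p-values adjusted by Benjamini-Hochberg over all genes, and called at adjusted p under 0.05. The test was checked on simulated data. Spleen groups have 1 array each and no test.

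The 10 genes and the 15 gene lists were chosen with earlier results of these data known. Named genes were the 10, up to 4 called genes of each list with the largest difference between LG_eTconv and LG_naive, fixed defining markers and partners, and the 10 genes most like the 10 over the arrays. Of 223 listed genes, 185 were measured. Whether the replicate numbers pair the arrays was not settled by the deviations from the group means. Between LG_eTreg and LG_eTconv, same-numbered arrays correlated at 0.283, 0.0788 and 0.171, and other pairs at -0.23 to 0.0191. Between LG_naive and the effector subsets, same-numbered arrays correlated at -0.0969 to 0.137, and other pairs at -0.18 to 0.186. The main fit used no pairing. Alternatives were other probe set rules, a filter on dim genes, the highest background limit as floor for all arrays, other scalings, only the groups compared, the replicate block and each array left out.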

Additional observations from a re-analysis of the deposited data

Results flagged for a closer look

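No group had enough arrays to look for a single array far from the others. Among the genes named, these were flagged because their differences from LG_naive were not the same in LG_eTreg and LG_eTconv, by the limma test of LG_eTreg minus LG_eTconv. Both differences share the LG_naive arrays. In 5 genes the call held in all 18 other settings. Irf8 differed by 1.71 (-1.03 in LG_eTreg and -2.74 in LG_eTconv, adjusted p = 0.0001), Cd14 by 1.66 (-1.42 and -3.08, adjusted p = 0.00579), Themis, a T cell receptor signalling gene, by -1.69 (-2.58 and -0.88, adjusted p = 8.54e-05), the phosphatase gene Ptpn11 by -1.12 (0.52 and 1.63, adjusted p = 0.000468), and Cd200r1, an inhibitory receptor, by 1.96 (0.73 and -1.23, adjusted p = 0.00207).

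In the other 9 the call ended in some settings. Spib differed by -1.42 (-4.41 in LG_eTreg and -2.99 in LG_eTconv, adjusted p = 0.0118, and 0.0514 without LG_eTreg 2). Cd4 differed by -0.55 (-0.0044 and 0.54, adjusted p = 0.00845, and 0.162 with the mean of its probe sets). Ccr9 differed by -1.15 (-5.30 and -4.15, adjusted p = 0.013, and 0.0574 without LG_eTconv 2 or 0.0508 without LG_eTconv 3), but by -0.45 with the mean of its probe sets (adjusted p = 0.389). Blnk differed by -1.54 (-3.85 and -2.31, adjusted p = 0.0162, and 0.0629 without LG_eTreg 2 or 0.0562 without LG_eTconv 1). It was below background on all LG_eTreg arrays, so LG_eTconv was at least 1.96-fold and LG_naive at least 9.70-fold higher than LG_eTreg. Tcf4 differed by -0.91 (-2.43 and -1.52, adjusted p = 0.0244, and 0.0632 to 0.0951 without LG_eTreg 1, LG_eTreg 3 or any LG_eTconv array). Klf4 differed by -1.35 (-0.26 and 1.09, adjusted p = 0.0205, and 0.0514 to 0.0781 without LG_eTreg 1, LG_eTreg 3, LG_eTconv 2 or LG_eTconv 3). Cish differed by 1.03 (3.12 and 2.10, adjusted p = 0.0221, and 0.0668 to 0.082 without LG_eTreg 2, LG_eTreg 3 or any LG_eTconv array). Irf7 differed by 1.04 (-0.22 and -1.26, adjusted p = 0.0446, and 0.0517 to 0.148 without any one gland array but LG_naive 1). Csf2 differed by -1.47 (0.30 and 1.77, adjusted p = 0.0489, and 0.0715 to 0.162 without any one gland array but LG_eTreg 2 and LG_eTconv 3). It was below background on all LG_naive arrays and above it on 1 of 3 LG_eTreg arrays, so LG_eTconv was at least 1.47-fold higher than LG_naive.

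With all values under the highest background limit of any array raised to that limit, the difference was -0.69 for Ccr9 (adjusted p = 0.0587), -0.52 for Blnk (adjusted p = 0.614) and -0.46 for Csf2 (adjusted p = 0.35), and the calls of Tcf4, Klf4, Cish and Irf7 ended as well (adjusted p = 0.0566 to 0.103). Without LG_naive 1, LG_eTconv 1 and LG_eTreg 3 together, the calls of Spib, Cd4, Ccr9, Blnk, Tcf4, Klf4, Cish and Csf2 ended (adjusted p = 0.0534 to 0.326). With every probe set tested or only the groups compared, those of Irf7 and Csf2 ended, with the replicate block those of Irf7 and Cish, and with array medians subtracted that of Csf2 (adjusted p = 0.0511 to 0.122).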

How the results depend on the processing

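The 10 genes kept their direction against LG_naive and the spleen arrays in the medians under every setting run. With the mean of a gene's probe sets, the median difference was -2.70 in LG_eTconv minus LG_naive, -3.44 in LG_eTreg minus LG_naive, 1.88 against Spl_CD4 and 1.94 against Spl_CD8. With every probe set counted it was -2.68, -3.08 and, against Spl_CD8, 1.93. With the highest background limit of any array as the floor for all it was -3.46 in LG_eTreg. With 1 array left out it ran from -3.33 to -3.07 in LG_eTconv and from -3.71 to -3.56 in LG_eTreg. Between LG_eTreg and LG_eTconv, 1 to 2 of the 10 were called with 1 array left out, and all genes called higher numbered 330 without LG_eTconv 2, against 502. With that floor, the lower conventional dendritic cell genes numbered 2 in LG_eTconv and 3 in LG_eTreg, and the lower monocyte and macrophage genes 4 in LG_eTconv, also 4 with only the groups compared and 3 to 7 with 1 array left out. Plasmacytoid dendritic cell counts ran from 11 to 14. Uncalled differences of LG_eTreg minus LG_eTconv changed sign in 4 genes: Lair1 (0.15 with that floor, 0.014 after quantile normalization, -0.29 to 0.38 with 1 array left out, above 0 without LG_eTreg 3 or LG_eTconv 1), Pld4 (0.0072 with that floor, -0.52 to 0.17 with 1 array left out, above 0 without LG_eTreg 1), Csf2rb (-0.56 to 0.38 with 1 array left out, above 0 without LG_eTreg 1, LG_eTreg 3 or LG_eTconv 3) and Upb1. Without LG_naive 1, LG_eTconv 1 and LG_eTreg 3 together, a setting added after seeing the data because of their RNA controls, Lair1 read 0.52, Upb1 0.15 and Csf2rb 0.0099. The cause was not tested. Of 111 calls of named genes outside the 10, 42 ended in some setting and 0 reversed.

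With the replicate block, 13 plasmacytoid dendritic cell genes were lower in each effector subset, 4 conventional dendritic cell genes in each, and 5 monocyte and macrophage genes in LG_eTconv and 4 in LG_eTreg. Irf8 remained called (adjusted p = 0.00152). Whether the numbers pair the arrays was not settled.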
